A study of Mus musculus with 2 samples.

Results

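The cells described here are those that the deposited annotation of a mouse kidney single-cell RNA sequencing series names Ccr2+ Mac, macrophages marked by the chemokine receptor gene Ccr2. They were taken by that name alone, and they number 249 of 11759 cells. Of these, 217 belong to the library of a kidney after ischaemia-reperfusion injury (IRI, 5170 cells), and 32 to the control library (6589 cells). IRI stops and restores the blood flow of 1 kidney, and in this model the opposite kidney was removed. Both libraries came from wild-type C57BL/6 mice aged 9 weeks, whose kidneys were digested with Liberase and DNase I. The control is labelled normal and no nephrectomy is named for it, so the effects of ischaemia and of nephrectomy cannot be told apart. The labels name no time after injury and 1 library per group, so the comparisons describe these libraries without a test, and intervals cover counting error only.

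Ccr2 encodes the receptor for the chemokine Ccl2, and it carries Ly6c2-expressing classical monocytes from bone marrow through blood into injured tissue. In the kidney such monocytes can turn into macrophages, while resident macrophages rich in complement C1q genes were in place before. Another kind of blood monocyte, low in Ly6c2 and dependent on the transcription factor Nr4a1, patrols the vessel wall, and conventional dendritic cells, which present antigen on class II molecules, also express Ccr2 in part.

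IRI Ccr2+ Mac cells had a median of 7177 raw UMIs (unique molecular identifiers, 1 per captured transcript; 771 to 24680), and the control cells of the type had a median of 6192. Resident macrophages of the IRI library (Resid. Mac, 306 cells) had a median of 799.5 UMIs, and its neutrophils (106 cells) 1451. Levels are therefore given as corrected counts, the authors' depth-corrected UMI counts per cell, averaged over the cells of a group. That correction did not even out the groups fully, because the mean corrected total was 2378 in IRI Ccr2+ Mac and 1850 in IRI Resid. Mac. Mitochondrially encoded genes made up 10.3% of the corrected counts of IRI Ccr2+ Mac, against 25.2% in Resid. Mac and 18.7% in neutrophils. The summed level of 10 proximal tubule genes was 6.00 in IRI Ccr2+ Mac, 11.1 in control Ccr2+ Mac, 19.6 in IRI Resid. Mac and 14.5 in IRI neutrophils. The part of depth, RNA quality and free tubule RNA in the results below was not tested. Doublets were not called and cells were not thinned, since raw counts per gene were not analysed here. Of 55 barcodes found in both libraries, 1 belongs to a cell of the type.

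Ccr2+ Mac made up 4.20% of the IRI library (217 of 5170 cells, exact 95% interval 3.67 to 4.78%), against 0.486% of the control library (32 of 6589 cells, 0.332 to 0.685%). The ratio of shares was 8.64 (5.94 to 12.95). Among immune cells the share was 26.7% of 814 IRI cells, against 7.73% of 414 control cells, a ratio of 3.45 (2.37 to 5.17). Among the 3 macrophage types it was 40.0% of 542 IRI cells, against 9.82% of 326 control cells, a ratio of 4.08 (2.81 to 6.11). Among cells with at least 1000 and 2000 UMIs the ratio was 8.69 and 9.497, so the type was a larger share in IRI under each of the 5 denominators.

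The markers that go with the label are described first. Ccr2 averaged 1.41 corrected counts in IRI Ccr2+ Mac, against 0.176 in IRI Resid. Mac, 0.00943 in neutrophils and 0.289 in T cells, and it was seen in 134 of 217, 31 of 306, 1 of 106 and 23 of 97 cells of these groups. Among cells with at least 2000 UMIs the means lay closer, at 1.44 in Ccr2+ Mac and 0.674 in Resid. Mac (log2 ratio 1.04). The type held 71.8% of the IRI library's summed Ccr2. It also held 76.1% of Lyz2, the lysozyme of myeloid cells, 57.9% of Plac8, a monocyte gene, and 48.2% of Ly6c2. For Arg1, which encodes arginase 1, which breaks arginine down to ornithine, it held 86.4%, and for the matrix protein gene Fn1 77.3%. All 6 label genes averaged higher in the type than in Resid. Mac and in neutrophils. The deposited types were drawn from the expression of these same cells, so this describes the label and does not test it. The same holds for the cell type markers compared between types below. They did not mark the same cells, though, and the type was a mixture.

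The cells of both libraries were split into 7 subclusters, whose classes were named from cell type markers only. Arg1, the chemokines and the other functional gene lists were left out of that clustering unless they were also markers. Arg1 and Ccr2 are on no marker list. They stand in the names of subclusters where they were high, so those names describe their levels. The IRI cells comprised 86 macrophage-like cells (39.6%, 33.1 to 46.5%), 61 monocyte-like cells (28.1%, 22.2 to 34.6%) and 32 dendritic-like cells (14.7%, 10.3 to 20.2%). A further 38 cells (17.5%) had no listed marker among their 10 leading genes and stayed unnamed. Their summed levels were 31.2 for macrophage-like and 16.5 for monocyte-like markers. The 32 control cells comprised 21 dendritic-like cells (65.6%, 46.8 to 81.4%) and 11 monocyte-like cells (34.4%, 18.6 to 53.2%). Neither macrophage-like nor unnamed cells were found among the control cells, where 0 of 32 allows a share of up to 9.38%. The genes that set the macrophage-like cells apart are the ones that were low or at 0 in control cells, so the cell numbers and those gene levels are 1 observation and not 2. With 1 library per group, a subcluster of IRI cells alone may also be that library.

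**Figure D1:**
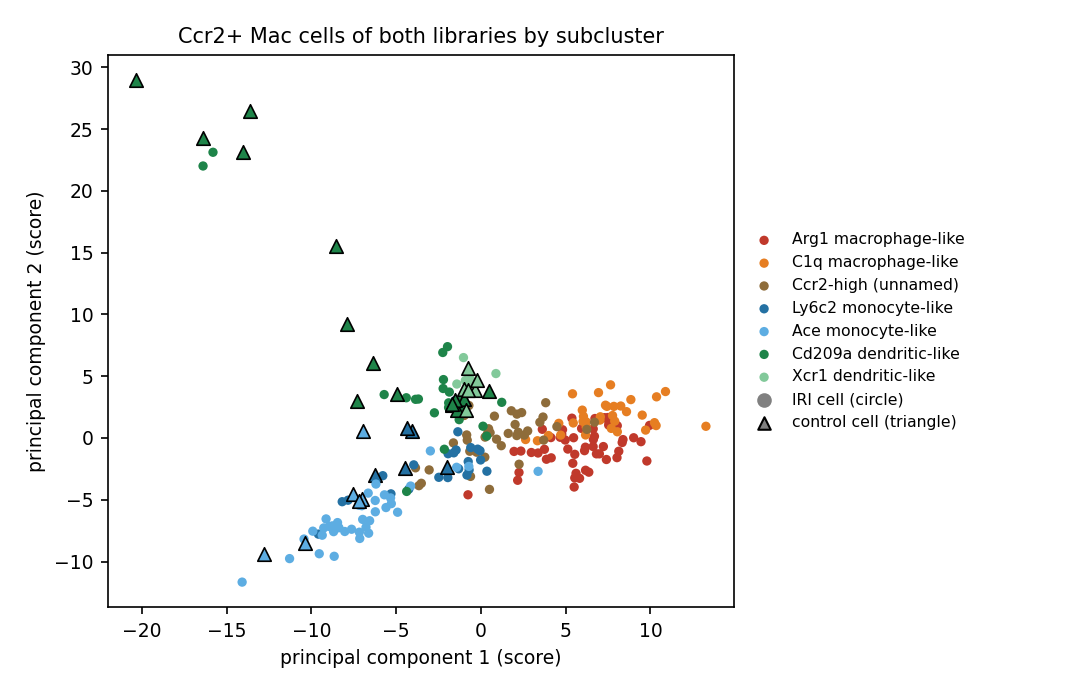
Each point is 1 Ccr2+ Mac cell placed by its first and second principal component scores and coloured by subcluster, with IRI cells as circles and control cells as outlined triangles. The 32 control cells lie among the monocyte-like and dendritic-like cells and none lies in the Arg1, C1q or Ccr2-high subclusters.

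**Figure D2:**
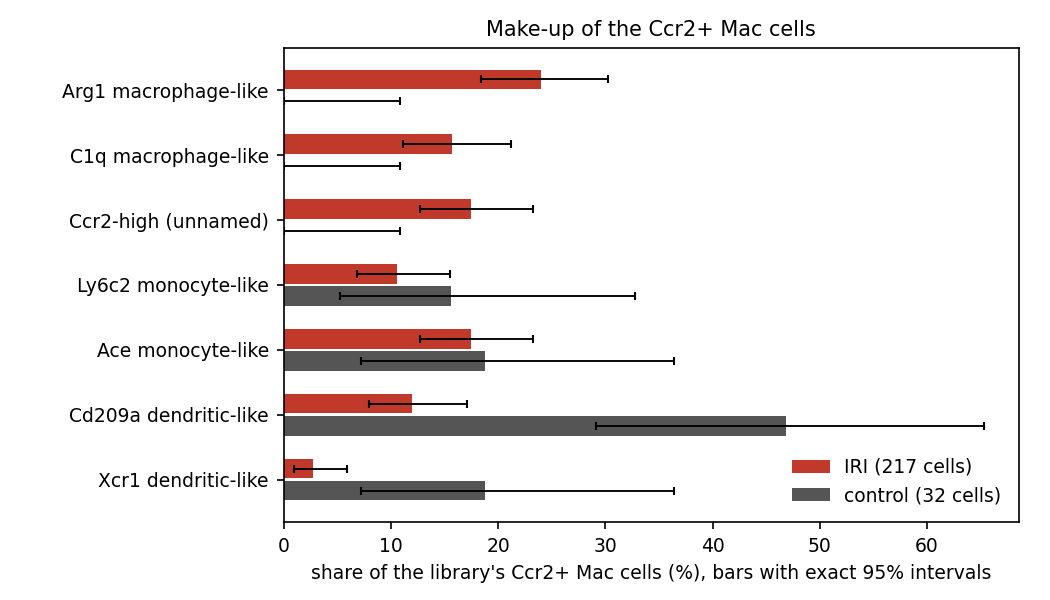
Share of the type's cells in each subcluster (%), for 217 IRI and 32 control cells, with exact 95% intervals as error bars. The Arg1 macrophage-like subcluster is 23.96% of the IRI cells and holds no control cell, while the Cd209a dendritic-like one is 11.98% of the IRI and 46.9% of the control cells.

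The Arg1 macrophage-like subcluster was the most numerous, with 52 IRI cells and no control cell (median 8290 UMIs). Arg1 ranged from 0 to 30 in its cells with a median of 3.5 and a mean of 7.15, and it was seen in 42 of 52 cells (80.8%, 67.5 to 90.4%), against 13 of the 197 other cells of the type. The subcluster held 87.5% of the type's summed Arg1, and 75.6% of the whole IRI library's, in 1.01% of the library's cells. In the C1q macrophage-like subcluster Arg1 was seen in 11 of 34 cells at a mean of 0.912. A single Ace monocyte-like cell held 21 corrected counts, and the other subclusters had at most 1 cell with Arg1. Arg1 was at 0 in all 97 T cells of the IRI library (median 3345 UMIs), which allows a share of cells with a UMI of up to 3.09%, and in all 32 control cells of the type. Read instead as cells with at least 1 UMI, from the gap in the deposited residuals between 0.0551 and 1.81, Arg1 was found in 60 of 217 IRI Ccr2+ Mac cells (27.6%, 21.8 to 34.1%) and in 12 of 306 Resid. Mac (3.92%, 2.04 to 6.75%). Beside these stand 62 of all 4953 IRI cells outside the type (1.25%, median 1775 UMIs) and 33 of 3261 IRI proximal tubule cells (1.01%, median 1819 UMIs). By that reading the Arg1 subcluster again had 42 of 52 cells, the C1q one 13 of 34 and the unnamed one 4 of 38.

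Beside Arg1, the leading genes of these cells encode secreted and matrix proteins. Fn1, the gene of fibronectin, was seen in 51 of 52 cells at a mean of 4.67, against 44 of 197 other cells of the type at 0.528. Thbs1, the gene of the matrix glycoprotein thrombospondin-1, averaged 2.85 in the subcluster and 0.244 in the other cells. Spp1, the gene of osteopontin, averaged 23.1 in the subcluster and 2.18 in the other cells. Spp1 was also plentiful elsewhere in the IRI library, at a mean of 8.74 in the cells outside the type, and IRI neutrophils had it in 75.5% of cells at a mean of 1.97. Only 3.63% of the library's Spp1 lay in the type, so a low Spp1 level in a cell was not told apart from free RNA. Osm, the gene of the cytokine oncostatin M, averaged 1.13 in the subcluster, and 56.2% of the type's Osm lay there. Of the growth factor and matrix list, 9 of 15 genes compared averaged at least 2-fold higher in the subcluster and 1 lower. The median log2 ratio was 1.24. Of all 4482 genes compared 5.53% were higher and 11.6% lower, with a median of −0.11. Fn1, Thbs1 and Spp1, among others of that list, are also cell type markers, which the clustering could use. The list count may thus be set in part by the grouping.

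Of the chemokines that attract monocytes through Ccr2, Ccl2 and Ccl7 were densest in the same cells and Ccl12 in the C1q ones. Ccl2, the main Ccr2 ligand, averaged 6.00 in the Arg1 subcluster and was seen in 35 of 52 cells, and Ccl7, another Ccr2 ligand, averaged 3.92. The other cells of the type averaged 0.731 for Ccl2, in 40 of 197 cells. Ccl12, a further Ccr2 ligand, averaged 0.558 in the Arg1 and 1.32 in the C1q subcluster, which held 50.6% of the type's Ccl12. The type held 80.5% of the IRI library's Ccl2 and 82.1% of its Ccl7. Ccl24, which attracts eosinophils, averaged 3.52 in the subcluster, against 0.0102 in the other cells of the type, but it rested on 18 cells, and 1 cell held 32% of its sum. All 18 of these cells also had Arg1. Ccl6 averaged 17.3 and Ccl9 7.65 in the subcluster, against 1.64 and 0.727 in Ace monocyte-like cells. Cxcl2, a neutrophil attractant, averaged 6.81 in the subcluster and 0.660 in the other cells of the type. Of the monocyte attracting chemokines 5 of 10 averaged at least 2-fold higher in the subcluster and 2 lower. Of all 4482 genes compared there, 5.53% were higher and 11.6% lower. Summed over the list, the level was 39.7 in the Arg1 subcluster, 18.4 in the C1q one, 8.74 in the unnamed one, and 1.58 to 5.21 in the monocyte-like and dendritic-like ones.

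Monocyte-like markers were low in the 52 cells, with a summed level of 5.08, against 29.75 and 17.4 in the Ly6c2 and Ace monocyte-like subclusters and 7.85 in the Cd209a dendritic-like one. Ccr2 was seen in 37 of 52 cells, and 27 cells had both Arg1 and Ccr2. Ly6c2 was seen in 7 of 52 cells and Plac8 averaged 1.46, against 16.5 in Ly6c2 monocyte-like cells. Arg1 occurred together with C1qb in 13 cells and with Mrc1, the gene of the mannose receptor, in 9. Glycolytic enzymes averaged higher in these cells than in the rest of the type, with 10 of 14 genes at least 2-fold higher, none lower, and a median of 1.4. Gapdh averaged 6.67 in the subcluster and 4.21 in the C1q one, and Ldha, lactate dehydrogenase A, 2.13 and 0.559. Of the hypoxia and haem list, 4 of 9 genes were at least 2-fold higher and none lower, with a median of 0.98. Oxidative phosphorylation had 0 of 14 genes past 2-fold in either direction, with a median of −0.15. Most of the arginine and polyamine list, which includes Arg1 itself, did not follow Arg1. Of its 11 genes compared, Arg1 among them, 2 were at least 2-fold higher and none lower, with a median of −0.03. Over all 4482 genes compared in this subcluster 5.53% were higher and 11.6% lower. Odc1, the next enzyme on the path from ornithine to polyamines, averaged 0.0385 in the subcluster.

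At a finer clustering the Arg1 subcluster divided into 31 and 19 cells, with 2 cells placed elsewhere. The 19 cells averaged 11.3 for Arg1, 8.42 for Ccl24, 12.3 for Cxcl2 and 4.74 for Il1b, the gene of interleukin-1 beta. The 31 cells averaged 5.06 for Arg1, 0.742 for Ccl24, 3.90 for Cxcl2 and 1.58 for Il1b. Spp1 and Ccl2 ran the other way, at 5.74 and 3.16 in the 19 cells, against 33.4 and 7.97 in the 31 cells. Arg1 was seen in 15 of 19 and in 26 of 31 cells, so both sets carried it.

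The C1q macrophage-like subcluster, 34 IRI cells with a median of 9337 UMIs, carried the genes of complement C1q and of scavenging. C1qb ranged from 0 to 41 with a median of 14 and a mean of 16.2, and it was seen in 30 of 34 cells, against 43 of 215 other cells of the type. Mrc1 averaged 1.59, against 0.0651 in the other cells of the type, and Stab1, the gene of the scavenger receptor stabilin-1, 2.44 against 0.135. Hmox1, the haem-degrading enzyme haem oxygenase 1, averaged 3.35 and Pf4 13.2, against 1.54 and 6.5 in the Arg1 subcluster. Of the lysosome and lipid handling list 13 of 20 genes were at least 2-fold higher and 1 lower than in the rest of the type, with a median of 1.34, where 5.6% of all genes were higher and 18.4% lower. Ctsb, the protease cathepsin B, averaged 12.1 in these cells and Apoe, the gene of apolipoprotein E, 26.9. Apoe, Ctsd, Ctsl, Cd68 and Gpnmb of that list are also cell type markers, which the clustering could use. The list count may thus be set in part by the grouping. Ccr2 was at 0.618, in 13 of 34 cells, and Ly6c2 was at 0 in all 34. Immediate early genes such as Fos and Junb were low, with 0 of 17 at least 2-fold higher, 13 lower, and a median of −1.71. Classical activation genes followed, with 10 of 12 at least 2-fold lower and none higher. Il1b averaged 0.118 in this subcluster, against 2.67 in the Arg1 one.

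**Figure D3:**
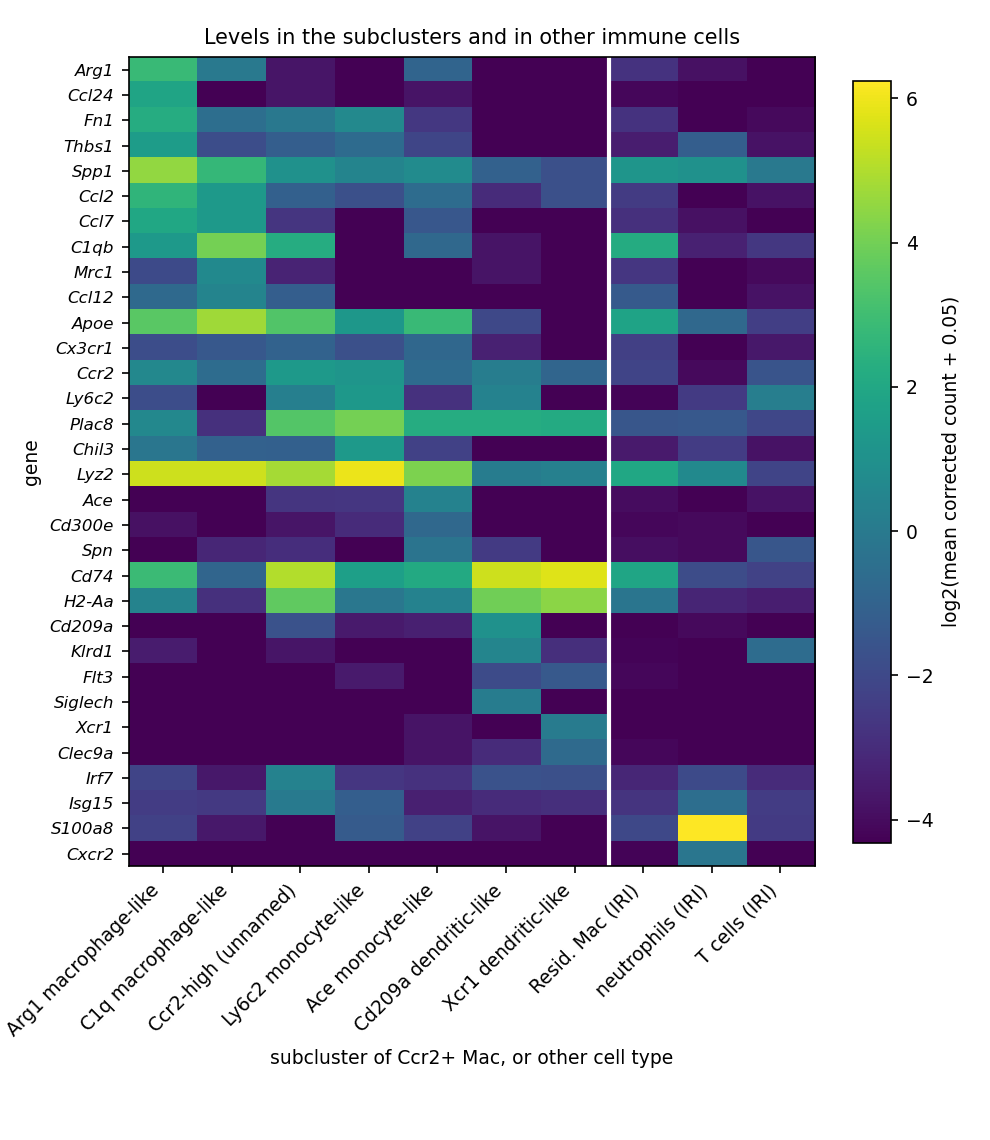
Mean corrected count of 32 genes, as log2 of the mean plus 0.05 by colour, in the 7 subclusters (left) and in Resid. Mac, neutrophils and T cells of the IRI library (right). Arg1, Fn1 and Ccl24 are brightest in the Arg1 subcluster, C1qb and Mrc1 in the C1q one, Ly6c2 in the Ly6c2 one, and S100a8 and Cxcr2 in neutrophils.

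The unnamed subcluster of 38 IRI cells (median 7756.5 UMIs) had the highest mean of Ccr2, 2.55, seen in 33 of 38 cells. It combined the monocyte gene Plac8, at a mean of 10.7, with class II genes and C1q genes. Cd74, the invariant chain that escorts class II molecules, averaged 33.0, and C1qb 4.63, in 18 of 38 cells. Its leading genes by ratio were interferon genes (Rsad2, Ifit3, Cxcl10, Irf7, Gbp2, Isg15 and Cmpk2, with Ccl5 from 1 cell), but few cells carried them. In 6 of the 38 cells at least 8 of 16 interferon response genes were seen, and in 1 cell all 16. The 6 cells were picked by these genes, so their levels describe the choice, and Rsad2, the gene of the antiviral protein viperin, was seen in 4 of them and in none of the other 32. Of genes outside that choice, Ccr2 was seen in 4 of the 6 and 29 of the 32 cells, Cd74 in 3 and 29, and C1qb in 4 and 14. Over all 38 cells 10 of 16 interferon genes were at least 2-fold higher than in the rest of the type and none lower, with a median of 1.56, where 1.47% of all genes were higher and 20.2% lower. Cells with at least 8 interferon genes also occurred among Ly6c2 monocyte-like cells (4 of 28) and Arg1 cells (2 of 52), and made up 13 of 217 IRI and 2 of 32 control cells of the type.

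The Ly6c2 monocyte-like subcluster (23 IRI and 5 control cells, median 6109.5 UMIs) carried markers of classical blood monocytes. Ly6c2 was seen in 20 of 23 IRI cells at a mean of 2.30, and in 4 of 5 control cells at a mean of 3.2. All 20 of these IRI cells also had Ccr2. Plac8 averaged 17.3 in the IRI and 12.8 in the control cells, and Lyz2 55.7 in the IRI and 82.2 in the control cells. Other leading genes were Chil3, a chitinase-like protein of monocytes and alternatively activated macrophages (22 of 28 cells, mean 2.50), Hp, the gene of haptoglobin (20 of 28 cells), Mgst1 (21 of 28) and Vcan, the gene of the proteoglycan versican (15 of 28). Saa3 led by ratio, but 6 cells had it and 1 of them held 65% of its sum. C1qb and Arg1 were at 0 in all 28 cells.

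The Ace monocyte-like subcluster (38 IRI and 6 control cells) carried markers of patrolling monocytes. Ace, the gene of angiotensin-converting enzyme, averaged 1.25 and was seen in 30 of 44 cells, against 5 of 205 other cells of the type. Spn, the gene of the sialophorin CD43, averaged 0.795, Itgal, the integrin alpha L gene, 1.16, and Cd300e 0.545. The transcription factor gene Nr4a1 averaged 2.14, against 0.750 in Ly6c2 monocyte-like cells, and Klf2 2.45 against 1.00. Ccr2 was at 0.591 over the 44 cells, and 12 of 38 IRI cells had it. Ly6c2 was seen in 4 of 38 IRI cells, against 0 of 6 control cells. These cells were the shallowest of the type, with a median of 3231.5 UMIs, and 7 of 9 proximal tubule genes were at least 2-fold higher than in the other cells, where 14.9% of all genes were higher and 6.94% lower, and their summed level was 12.3 against 5.43. That tubule level moved with the subcluster, and its part in the ratios was not tested.

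The 2 dendritic-like subclusters were the ones in which class II genes were highest and Lyz2 lowest. The Xcr1 subcluster (6 IRI and 6 control cells, median 13067 UMIs) had Xcr1, a chemokine receptor of cross-presenting dendritic cells, in 10 of 12 cells, against 1 of 237 other cells of the type, and Clec9a, a receptor for dead cells, in 7 of 12. Its mean of Irf8, a transcription factor such cells need, was 3.92, against 1.39 in the Cd209a subcluster. The Cd209a subcluster (26 IRI and 15 control cells, median 7059 UMIs) had Cd209a, a lectin gene of another kind of conventional dendritic cell, in 9 of its 26 IRI cells, against 12 of its 15 control cells. Dendritic-like markers, which the clustering had used, were at least 2-fold higher there than in the rest of the type in 14 of 19 genes and lower in 2, where 5.67% of all genes were higher and 12.4% lower. Klrd1 was seen in 27 of its 41 cells and Cd7 in 19. Siglech, a lectin gene of plasmacytoid dendritic cells, was seen in 2 of its 26 IRI cells, against 6 of its 15 control cells. In 4 control cells it occurred together with Cd209a, and in no IRI cell. Ccl22, a chemokine of mature dendritic cells, came from 2 IRI cells, both of which also had Ccr7, the receptor that guides such cells to lymph nodes. Neither of these 2 cells had Siglech, so the subcluster was itself mixed. Lyz2 averaged 1.02 in the Cd209a and 1.17 in the Xcr1 subcluster, against 17.6 to 60.5 in the other subclusters.

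**Figure D4:**
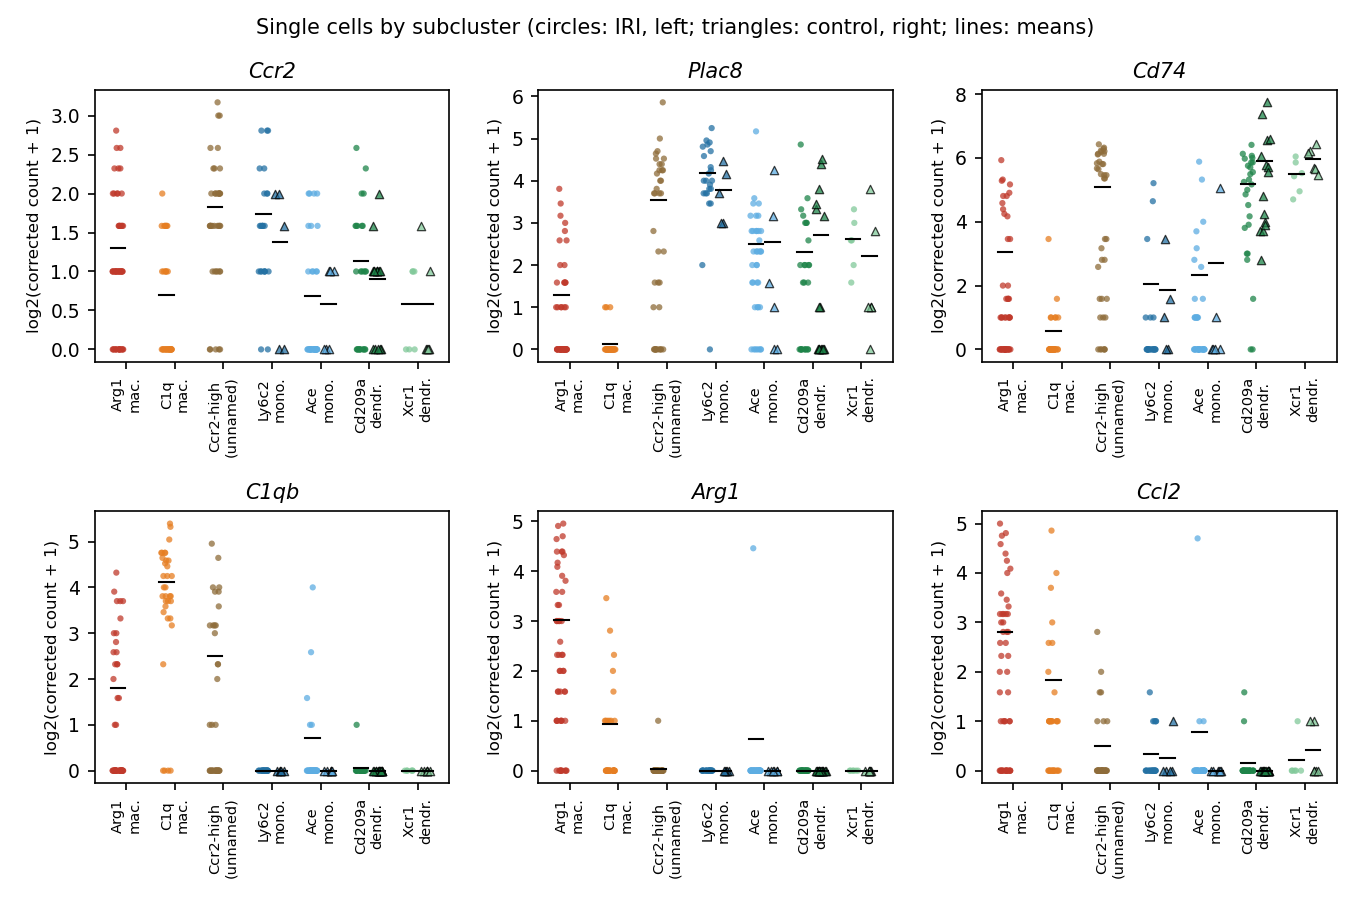
Corrected count of 6 genes in single cells, as log2 of the count plus 1, by subcluster, with IRI cells as circles on the left, control cells as triangles on the right, and the group mean as a line. Arg1 reaches 30 in the Arg1 subcluster and is at 0 in every control cell, C1qb is at 0 in every control cell, and Cd74 is high in dendritic-like cells of both libraries.

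Class II genes differed widely between the subclusters. Summed over 10 genes, their level was 132 in the Xcr1 and 97.5 in the Cd209a subcluster, 71.7 in the unnamed one, 11.98 in the Arg1 one, 8.45 and 5.93 in the Ace and Ly6c2 monocyte-like ones and 1.00 in the C1q one. The C1q macrophage-like cells thus had almost no class II RNA, with H2-Aa at 0.0882, while the unnamed cells, which also carry C1q, had H2-Aa at 12.5. Class II genes are switched on together by the coactivator Ciita through promoter elements that include the Y box, bound by the factor NF-Y. The promoters of 3 list genes are shown because these genes varied together across the subclusters (RefSeq, GRCm38.p6, the 250 bases before the start; H2-Aa at chr17:34287824-34288073, minus strand; H2-Eb1 at chr17:34305617-34305866, plus strand; H2-DMb1 at chr17:34152941-34153190, plus strand). Each is written 5′ to 3′ on the gene's strand, and capitals mark the Y box letters.
H2-Aa: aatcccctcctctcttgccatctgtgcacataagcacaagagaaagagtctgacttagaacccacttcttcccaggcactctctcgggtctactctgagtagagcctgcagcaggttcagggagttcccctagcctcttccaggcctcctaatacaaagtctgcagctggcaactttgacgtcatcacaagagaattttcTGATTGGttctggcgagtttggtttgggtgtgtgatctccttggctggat
H2-Eb1: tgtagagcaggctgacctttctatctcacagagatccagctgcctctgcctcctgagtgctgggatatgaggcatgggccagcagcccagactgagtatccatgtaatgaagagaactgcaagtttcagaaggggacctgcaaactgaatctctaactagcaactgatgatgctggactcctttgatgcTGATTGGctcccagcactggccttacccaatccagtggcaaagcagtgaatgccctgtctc
H2-DMb1: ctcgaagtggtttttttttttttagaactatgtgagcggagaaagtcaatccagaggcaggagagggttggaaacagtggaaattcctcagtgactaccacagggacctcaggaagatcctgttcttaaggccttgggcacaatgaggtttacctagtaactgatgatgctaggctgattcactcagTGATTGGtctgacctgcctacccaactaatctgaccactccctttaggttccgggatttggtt
The letters TGATTGG, or CCAATCA on the other strand, were in 6 of the 7 class II list genes with a promoter in the table (H2-Aa, H2-Eb1, H2-DMb1, H2-DMb2, H2-Oa and H2-Ob), and in 8.38% of the promoters of all 27025 genes. Ciita itself was scarce, at 0.333 and 0.268 in the Xcr1 and Cd209a subclusters and at 0.105 or less in the others.

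For the interferon genes of the 6 cells the element of interest is the interferon-stimulated response element, searched on both strands as GAAA, any 2 bases and GAAA again (TTTC, any 2 bases and TTTC on the other strand). It was in 5 of 7 leading genes of the unnamed subcluster with a promoter in the table and in 6 of the 11 interferon list genes with one, against 3.46% of all 27025 genes. None of the 7 class II promoters held it, and none of the 11 interferon list promoters held the Y box letters, which were in 1 of the 7 leading genes, Cxcl10. A pair of promoters is shown with these letters in capitals (RefSeq, GRCm38.p6; Rsad2 at chr12:26456453-26456702, minus strand; Isg15 at chr4:156200819-156201068, minus strand), and in Isg15 3 overlapping matches run into each other.
Rsad2: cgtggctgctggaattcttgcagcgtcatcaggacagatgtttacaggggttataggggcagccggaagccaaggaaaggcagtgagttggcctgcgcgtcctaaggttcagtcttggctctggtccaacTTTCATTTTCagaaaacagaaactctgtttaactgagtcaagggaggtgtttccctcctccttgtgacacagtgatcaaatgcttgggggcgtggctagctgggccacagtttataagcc
Isg15: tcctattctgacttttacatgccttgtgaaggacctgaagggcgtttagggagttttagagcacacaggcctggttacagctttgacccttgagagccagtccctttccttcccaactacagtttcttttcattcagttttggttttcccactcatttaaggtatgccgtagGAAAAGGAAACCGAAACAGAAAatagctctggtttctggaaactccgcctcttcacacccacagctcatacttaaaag
A match describes the letters of the window and does not show a factor at work there.

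Genes commonly grouped as markers of alternative activation marked different cells of the type. Of the IRI cells' summed Arg1, 87.5% lay in the Arg1 subcluster, and of their Ccl24 98.9%. Of Mrc1 79.4% lay in the C1q subcluster, which was 15.7% of the cells, and 16.2% in the Arg1 one. Of Chil3 43.3% lay in the Ly6c2 monocyte-like subcluster, which was 10.6% of the cells, and 31.2% in the Arg1 one. Of Ccl17, a chemokine of dendritic cells, 79.6% lay in the Cd209a subcluster and the rest in the unnamed one. The classical activation gene Il1b was spread, with 27.7% in the Arg1 subcluster, 26.7% in the unnamed one, 20.6% in the Ace one and 0.798% in the C1q one. Tnf, the gene of tumour necrosis factor, was scarce, with 15 summed corrected counts over the 217 cells.

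Against resident macrophages, IRI Ccr2+ Mac stood out by inflammatory, monocyte and class II genes. Of 2674 genes compared, 883 (33%) averaged at least 2-fold higher in IRI Ccr2+ Mac and 121 (4.53%) at least 2-fold lower, with a median log2 ratio of 0.67. Scaled by a trimmed mean of the ratios, which takes off 0.84, 394 genes were higher and 299 lower. Levels are therefore also given for cells with at least 2000 UMIs, 212 Ccr2+ Mac (median 7247 UMIs) and 43 Resid. Mac (median 5865 UMIs), where 356 genes were higher and 84 lower and the median was 0.22.

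Il1b averaged 2.31 in IRI Ccr2+ Mac and was seen in 110 of 217 cells, against 0.0915 in Resid. Mac, in 14 of 306 cells (log2 ratio 4.06). Among the deeper cells it averaged 2.36 in Ccr2+ Mac and 0.140 in Resid. Mac. Plac8 averaged 5.49 against 0.304, and 5.61 against 0.0698 among the deeper cells. Ly6c2 was seen in 45 of 217 Ccr2+ Mac and in 1 of 306 Resid. Mac. Ccl2 averaged 2.09 in 72 of 217 Ccr2+ Mac, against 0.127 in 20 of 306 Resid. Mac (log2 ratio 3.59), and Cxcl2 2.23 against 0.0850 (4.08). Arg1 averaged 1.96 against 0.0980 (3.76), and 2.0 against 0.0233 among the deeper cells. The other genes with the highest ratios were Ccl24 and the transcription regulators Btg2, Junb, Nr4a1, Fos and Cebpb, at log2 ratios of 3.64 to 4.03. Among the deeper cells the 5 regulators were at 2.22 (Btg2) to 3.49 (Nr4a1), and Cxcl2 was at 3.04. Cebpb, a factor that drives inflammatory and monocyte genes, averaged 2.41 against 0.147.

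By list, 15 of 15 monocyte-like markers were at least 2-fold higher in Ccr2+ Mac, with a median of 2.24. With zeros set at 3 counts over the group the median was 2.78. That count describes the types, which were drawn from such genes, and does not test them. Of the immediate early and NF-kB genes 16 of 16 were higher (median 2.82), of the monocyte attracting chemokines 7 of 9 (3.05), of the adhesion and migration genes 10 of 10 (1.95), of the alternative activation genes 11 of 12 (2.48) and of the classical activation genes 6 of 7 (2.88). Over all cells none of these lists had a member at least 2-fold lower. Among the deeper cells the adhesion genes Itgal, Itgb2 and Cd44 kept log2 ratios of 1.72, 1.27 and 2.15. Those of Itgam, Itgax, Itgb1, Itga4, Selplg, Cd9 and Spn lay at 0.16 to 0.91 there. Of the alternative activation genes Arg1, Ccl24 and Chil3 stayed higher there, at 4.81, 4.21 and 1.72, but Mgl2 and Mrc1 were lower, at −1.20 and −0.36. Over all cells all 7 class II genes compared were higher (median 2.08). H2-Aa averaged 5.01 in deeper Ccr2+ Mac, against 0.628 in deeper Resid. Mac. The GM-CSF and IL-4 receptor pathway list, which holds kinases beside receptors, had 6 of 6 genes higher, with a median of 1.44. Among the deeper cells its median was 0.96. There Csf2rb, the shared beta chain of the GM-CSF receptor, averaged 0.406 against 0.0930, and Csf2ra, the alpha chain, 0.519 against 0.535.

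Resident macrophage markers depended on the depth of the cells compared. Over all cells 3 of 12 were at least 2-fold higher and 1 lower in Ccr2+ Mac, with a median of 0.15. Of all genes compared 33% were higher and 4.53% lower, with a median of 0.67, so the higher members do not stand out. Among cells with at least 2000 UMIs the median of the markers was −0.99, and with the trimmed mean scaling −0.58. There C1qa averaged 2.57 in Ccr2+ Mac and 9.47 in Resid. Mac, C1qb 4.05 and 11.6, Cx3cr1, the fractalkine receptor, 0.316 and 0.884, and the tetraspanin gene Cd81 0.118 and 0.884. C1qa, C1qb and C1qc are on both the macrophage-like and the resident list, so counts on these lists overlap and cannot tell such cells apart. Of the 10 leading genes of the C1q macrophage-like subcluster, 4 were on the macrophage-like and 4 on the resident list. Its means of C1qb (16.2), Mrc1 (1.59), Stab1 (2.44) and Fcrls (1.06) were above those of the deeper Resid. Mac, which were 11.6, 0.419, 0.721 and 0.302, while its means of Cd81 (0.147) and Cx3cr1 (0.324) were below. Genes among those with the lowest ratios over all cells (Cystm1, Keg1, Chchd10, Hrsp12, Acy3, Akr1c21, Ttc36, Ass1, Miox, Cda and Cisd1, −3.34 to −2.85) include enzymes of the proximal tubule such as Miox and Ass1. Among the deeper cells Acy3 turned to a ratio of 0.18, and the proximal tubule list had a median of −1.25, against −2.02 over all cells.

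In the IRI library, cells with mitosis transcripts were a smaller share of the type than of resident macrophages, and in the control library the order was the other way. Transcripts of 2 or more mitosis genes of the list were seen in 8 of 217 IRI Ccr2+ Mac (3.69%, 1.60 to 7.13%), against 53 of 306 IRI Resid. Mac (17.3%, 13.3 to 22.0%), at 799.5 median UMIs in Resid. Mac. In the control library it was 3 of 32 Ccr2+ Mac (9.38%, 1.98 to 25.0%), against 1 of 188 Resid. Mac (0.532%, 0.0135 to 2.93%). None of the 52 Arg1 macrophage-like cells met the limit, which allows up to 5.77%, while 3 of 34 C1q macrophage-like cells and 3 of 12 Xcr1 dendritic-like cells did. Neutrophils had 0 of 106.

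Against neutrophils, the other abundant infiltrating myeloid cells of the IRI library, the type was separated by class II, complement and chemokine genes on its side and by granule and S100 genes on the other. Of 2207 genes compared, 683 (30.9%) averaged at least 2-fold higher in IRI Ccr2+ Mac and 199 (9.02%) lower, with a median of 0.48. As means of each cell's own proportions, 520 were higher and 292 lower. S100a8 averaged 0.124 in Ccr2+ Mac and 76.0 in neutrophils, and S100a9 0.0645 and 47.4, and S100a8 was at the same 0.124 in T cells. Both encode calcium-binding proteins of granulocytes. Within the IRI cells of the type S100a8 ranged from a mean of 0 in the unnamed and Xcr1 subclusters to 0.435 in the Ly6c2 one. Cxcr2, the receptor that draws neutrophils toward Cxcl2, was at 0 in all 217 Ccr2+ Mac, against 50 of 106 neutrophils, and was at least 60.7-fold lower (3 counts over the group). Of 11 neutrophil-like markers compared 11 were lower, with a median of −4.15, and −4.41 with zeros at 3 counts. S100a4 averaged 3.45 in 172 of 217 Ccr2+ Mac and was at 0 in all 106 neutrophils, at least 122-fold higher. Fn1 and Ccl2 were also at 0 in all neutrophils and at least 55.4-fold and 73.8-fold higher in the type. All 7 class II genes compared were higher, with a median of 5.29. Lysosome and lipid handling had 14 of 17 genes higher and none lower (median 2.11), and growth factors and matrix 10 of 10 higher (1.94).

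Inflammatory genes did not separate the types in that way. Il1b averaged 2.31 in Ccr2+ Mac and 14.8 in neutrophils, and Cxcl2 2.23 and 12.8. Il1rn, which encodes the interleukin-1 receptor antagonist, averaged 0.263 and 2.06. Of the classical activation genes 3 of 9 were higher in Ccr2+ Mac and 4 lower, with a median of 0.41. Of the immediate early genes 5 of 17 were lower and none higher. Of all genes compared 30.9% were higher and 9.02% lower, so the 3 higher classical activation genes do not stand out. The chemokine receptor list had 3 genes higher and 4 lower (median −1.04), but that median turned to 0.80 with a minimum of 5 summed values and to 2.56 at 2000 UMIs. Ccr2 averaged 1.41 in Ccr2+ Mac and 0.00943 in neutrophils, while Ccr1, a receptor of inflammatory chemokines, averaged 0.387 and 0.849. Of the arginine genes Arg1 averaged 1.96 in Ccr2+ Mac and 0.0189 in neutrophils, and Arg2, the mitochondrial arginase, 0.0323 and 0.387. The 2 arginase genes thus had their higher mean in different cell types.

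**Figure D5:**
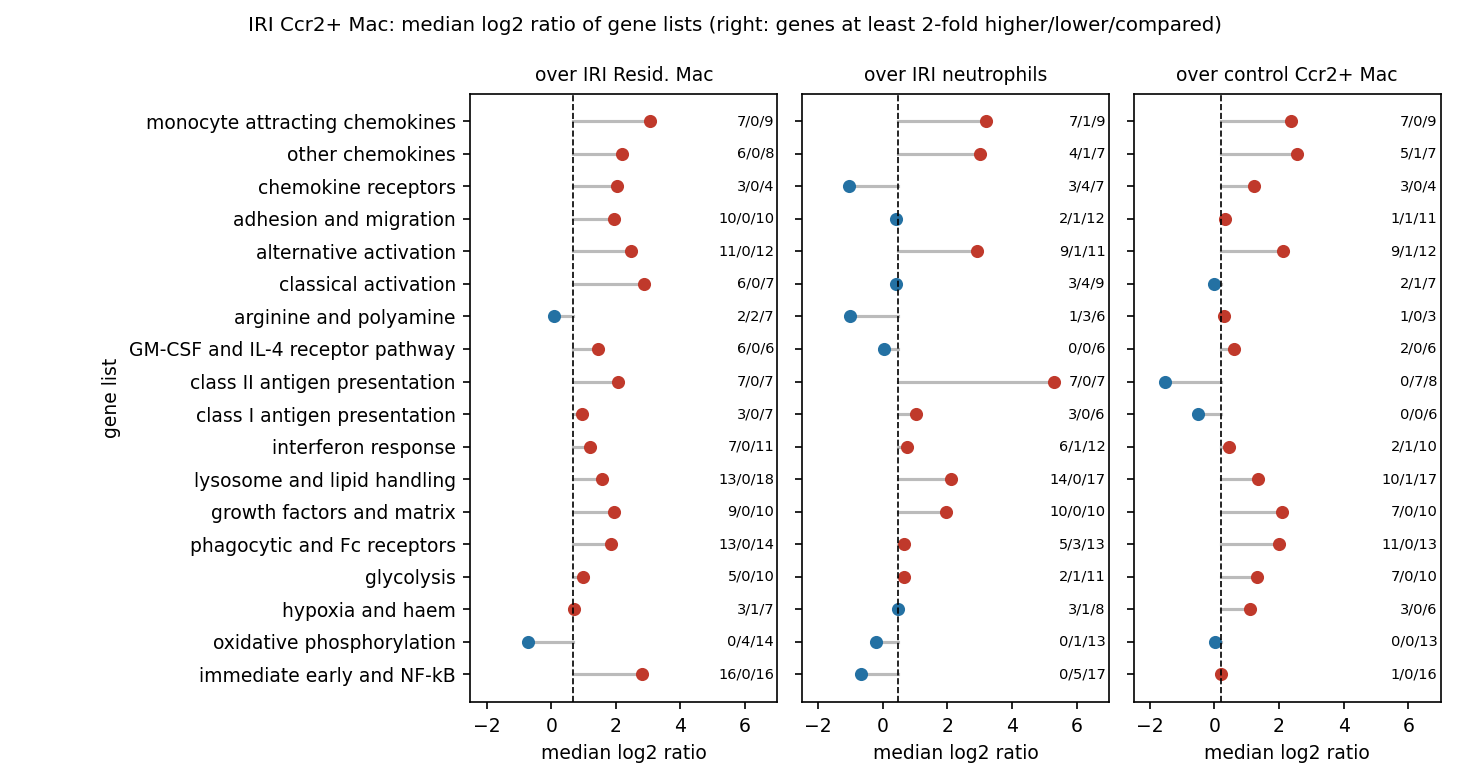
Median log2 ratio of 18 gene lists for IRI Ccr2+ Mac over IRI Resid. Mac, IRI neutrophils and control Ccr2+ Mac, with the median of all genes compared as a dashed line and the numbers of genes at least 2-fold higher, lower and compared at the right. Class II genes are higher than in neutrophils (5.29) and lower than in control cells of the type (−1.52), and monocyte attracting chemokines have medians of 3.05, 3.2 and 2.38. The 3 comparisons share the IRI Ccr2+ Mac cells.

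Between the libraries, macrophage-like markers were higher and class II genes lower in IRI than in control Ccr2+ Mac. Of 1921 genes compared, 286 (14.9%) averaged at least 2-fold higher in IRI and 82 (4.27%) lower, with a median of 0.19. A trimmed mean scaling, which adds 0.49, gave 564 higher and 38 lower. Of 17 macrophage-like markers compared 15 were higher in IRI, with a median of 2.59, and 2.22 with zeros at 3 counts. C1qb was seen in 73 of 217 IRI cells at a mean of 4.06 and in 0 of 32 control cells, at least 43.4-fold higher. Arg1 was at least 20.9-fold and Ccl7 at least 15.1-fold higher, both at 0 in control cells. Ccl2 averaged 2.09 in IRI (72 of 217 cells) and 0.0938 in control cells (3 of 32) (log2 ratio 3.89). The growth factor and matrix list had 7 of 10 genes higher (median 2.10, and 1.89 with zeros at 3 counts), the alternative activation list 9 of 12 higher and 1 lower (2.13, and 1.68) and glycolysis 7 of 10 higher (1.32). Dendritic-like markers were lower in IRI in 6 of 11 genes, and 7 of 8 class II genes were lower, with a median of −1.52. H2-Aa averaged 4.89 in IRI and 14.03 in control cells, and Cd74 14.04 and 40.8. Monocyte-like markers were split, with 2 of 16 higher, 2 lower and a median of 0.14, and the immediate early list had 1 of 16 higher (0.20).

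The libraries were also compared over the 4 subclusters that hold cells of both, pooled (93 IRI and 32 control cells). There 125 of 1071 genes (11.7%) were at least 2-fold higher in IRI and 36 (3.36%) lower, with a median of 0.17. Monocyte attracting chemokines then had 1 of 4 genes higher, and growth factors and matrix 2 of 6. Class II genes stayed lower, with 5 of 8 genes lower, none higher and a median of −1.36, and the plasmacytoid dendritic-like markers had 6 of 6 lower (median −1.62). These markers rested on few cells, since Siglech was seen in 2 of 93 IRI and 6 of 32 control cells. Within the Cd209a subcluster itself H2-Aa averaged 13.6 in IRI and 18.7 in control cells, and within the Xcr1 one 17.3 and 25.0, so the levels within a subcluster lay closer than the pooled ones. Ear2, a ribonuclease gene of patrolling monocytes, was seen in 30 of 93 IRI cells, against 0 of 32 control cells, and was at least 5.28-fold higher. Within the type Ear2 was seen in 26 of 44 Ace monocyte-like cells, against 9 of 205 others. That subcluster holds 38 of the 93 IRI but 6 of the 32 control cells, so the pooled ratio mixes make-up and level. Ifitm1, an interferon-inducible membrane protein, was seen in 18 of 93 and 0 of 32 cells, at least 7.46-fold higher. Spp1 led the list, at a mean of 1.42 in 56 of 93 IRI cells and 0 in control cells, but that mean lay between the 0.928 of IRI T cells and the 1.97 of IRI neutrophils. The tubule gene Kap was at 0.785 in IRI and 4.47 in control cells, and averaged 10.9 in the IRI and 33.6 in the control cells outside the type. The part of free RNA in both was not tested.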

How the data were processed

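The deposited expression table, for 15169 genes and 11759 cells, holds a score: SCTransform's corrected counts, which the authors adjusted for sequencing depth. They are whole numbers. A cell's corrected total lies between 1468 and 3212, and its raw UMIs between 271 and 24680. Another deposited table gives these values plus 1 on the natural log scale, and none of 178372271 values was off by more than 1e-06. A deposited table of residuals, another score, served to read Arg1. Cell Ranger 3.0.0, Seurat 3.2 and the build mm9 are named, per the submitters' processing notes. Filters on cells are not given in the sources used here. The annotation has no separators, and 170 of the 249 cells had several possible splits into raw UMIs and genes, of which the first with a plausible number of genes was kept.

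The plan had assumed raw counts, so mean corrected counts were compared instead, as log2 ratios with 0.05 added to each mean. Genes compared had at least 30 summed values over both groups (10 for subclusters). Subclusters came from Leiden clustering (scanpy 1.11.5, leidenalg 0.10.2, Python 3.11.15) using 1000 variable genes, 15 principal components, 10 neighbours and a resolution of 0.8. Named genes are the 12 highest and 12 lowest ratios of a comparison (8 highest for a subcluster), and besides them members of the lists. The ranked genes had a mean of at least 0.2 in the higher group. Genes with Gm or Rik names and genes of mitochondria, ribosomal proteins and haemoglobin were left out of the ranking. So was any gene whose mean in the remaining cells of that library exceeded 10 times that of the higher group. Intervals are exact (Clopper-Pearson, or conditional for ratios). A ratio against a group at 0 is a lower bound from 3 counts over the group. A cell with transcripts of 2 or more mitosis genes was counted as dividing. The members and the lists were chosen with earlier results of these data known. Log2 ratios and the subclustering were checked on simulated data. Promoters are RefSeq's (GRCm38.p6), matched by symbol, and the files' mm9 coordinates were not used. The alternatives were other pseudocounts, minimums, scalings, depth limits and clustering settings. One of the named genes is not reported here.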

Additional observations from a re-analysis of the deposited data

How the results depend on the processing

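The counts of genes past 2-fold moved more than 1.5 times under several settings. Against Resid. Mac, a pseudocount of 0.2 gave 342 higher and 74 lower, totals without technical genes 406 and 288, the trimmed mean 394 and 299, own proportions 186 lower, at least 1000 UMIs 562 higher and at least 2000 UMIs 356 higher. Against neutrophils, a pseudocount of 0.2 gave 329 and 107, and a minimum of 5 summed values 1029 and 306. Against control Ccr2+ Mac, a pseudocount of 0.2 gave 121 and 44, the minimum of 5 gave 560 and 447, the trimmed mean 564 and 38, and the subclusters shared by both libraries, an alternative chosen after seeing the data, 125 and 36. The share of the type was 5.98% in IRI and 0.688% in control with at least 1000 UMIs, 8.50% and 0.895% with at least 2000, and 26.7% and 7.73% of immune cells with a ratio of 3.45. At resolution 1.2 the Arg1 subcluster kept 31 of its 52 cells (59.6%); in the other settings each subcluster kept at least 82.4% of its IRI cells. The sign turned for Acy3 against Resid. Mac (0.18 at 2000 UMIs), and against neutrophils for the chemokine receptors (0.80 at 5 summed values, 2.56 at 2000 UMIs) and the arginine and polyamine list (0.20 at 5 summed values). The cause was not tested. Of 773 list medians 646 and of 672 named gene ratios 469 moved by less than their limit. No paired analysis was possible because each group is 1 library. Depth limits Resid. Mac and neutrophils, with 43 of 306 and 12 of 106 cells at 2000 UMIs, and 32 control cells limit every zero among them.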

Other observations

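Receptors for antibody and for microbial or dead-cell ligands also differed in where they were densest. Fcgr4, an activating Fc receptor gene, averaged 0.818 in Ace monocyte-like cells and 0.308 in Arg1 macrophage-like cells. Clec4n, which encodes the lectin dectin-2, averaged 1.67 in Arg1 cells and 0.412 in C1q cells, and Cd14, the co-receptor for bacterial lipopolysaccharide, 1.56 and 0.441. Over the phagocytic and Fc receptor list 8 of 15 genes were at least 2-fold higher in the Arg1 subcluster than in the rest of the type and none lower. The median was 1.12, where 5.53% of all genes were higher and 11.6% lower. Fcgr1, Mertk, Msr1 and Mrc1 of that list are also cell type markers, which the clustering could use. Igf1, an insulin-like growth factor gene, lay mostly in the C1q subcluster (76.2% of 21 summed corrected counts), as did Ccl8 (90% of 10, in 1 cell), but both rest on few counts. Trem2, a lipid-sensing receptor gene, averaged 2.0 in C1q and 1.21 in Arg1 cells, and was at 0 in both dendritic-like subclusters.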
